A study of Mus musculus with 8 samples.

Results

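Muscle miRNAs were followed in the small RNA of 3A murine hepatocytes and of the extracellular vesicles (EVs) purified from their medium. The members were taken by name, as miRNAs known to be largely restricted to skeletal and cardiac muscle, and were mmu-miR-1a-3p, mmu-miR-133a-3p, mmu-miR-133b-3p, mmu-miR-206-3p and mmu-miR-499-5p, written below without the mouse prefix. They are 5 of the 1978 mouse mature miRNAs in the deposited count table. At least 1 library held reads of 4 of them, and 2 of them, miR-206-3p and miR-1a-3p, passed the filter on low counts described below and were tested.

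The study asked whether the RNA-binding protein PCBP2 affects how miRNAs are divided between hepatocytes and their EVs. 3A cells are a single non-tumorigenic hepatocyte line, grown here on collagen with 10% FBS, EGF, IGF II and insulin. All cells carried a stably integrated pSUPER retroviral shRNA vector and had been selected with 2 µg/mL puromycin, the shCTR cells with a scrambled shRNA and the shPCBP2 cells with an shRNA against PCBP2. EVs came from medium with EV-depleted serum that the same 2 kinds of cells had conditioned for 72 h, and were collected by ultracentrifugation. With 2 biological replicates of each kind of cell and of the EVs of each, there were 8 libraries, and the nematode miRNA cel-miR-39 had been added as a spike-in. PCBP2 itself is not measured by these libraries.

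miRNAs are short RNAs that guide Argonaute proteins to messenger RNAs, mainly by pairing of the seed near their 5′ end, and lower the output of those messages. miR-1 and miR-206 share a seed and, with miR-133, are switched on by the transcription factors of muscle differentiation, where miR-1 and miR-206 favour differentiation and miR-133 is tied to myoblast growth. miR-206 is mostly a skeletal muscle miRNA, and miR-499 is made from an intron of a myosin heavy chain gene and is known from heart and slow muscle fibres. Hepatocytes are not a classical source of any of them.

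The sequences are shown because the members fall into families whose reads could be split or confused by near-identical letters, with the seed (bases 2 to 8) in capitals. All are mature sequences from RefSeq on GRCm38.p6, 5′ to 3′. The table used held 3 of the 5 members, and miR-206-5p (the other arm of the miR-206 hairpin) and miR-208b-3p (a cardiac miRNA) are given for comparison.
miR-206-3p: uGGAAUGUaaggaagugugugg
miR-206-5p: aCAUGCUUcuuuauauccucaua
miR-133b-3p: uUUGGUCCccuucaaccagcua
miR-499-5p: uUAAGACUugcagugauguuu
miR-208b-3p: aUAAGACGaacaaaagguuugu

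The seed of miR-206-3p, GGAAUGU, is also that of miR-1a-3p, which is not among the sequences searched. It was found in 3 of the 1679 mature sequences of that table (0.179%), the others there being miR-6349 and miR-6382, which had 0 reads in all 8 libraries. miR-499-5p and miR-208b-3p were alike over 6 bases, from base 2 to base 7, and differed at base 8. The study describes a cell-retention motif whose core is AUUA or AUUG. Searched as these letters on the mature strand, neither was present in any of the 5 sequences shown, while 149 of the 1679 mature sequences (8.87%) held at least 1 of them. The study also used an extended form of this motif and an export motif, hEXO, bound by the protein SYNCRIP. Those 2 motifs were not searched here.

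On the genome, miR-206-3p lies on the plus strand at chr1:20679055-20679076 and miR-133b-3p at chr1:20682834-20682855. Their hairpins, Mir206 and Mir133b, are separated by 3686 bases, and both lie within the long non-coding RNA gene Gm28653 of the GENCODE annotation, Mir133b in an exon and Mir206 partly in an exon. The Mir206 hairpin is printed with the 5p and the 3p arm in capitals, since the balance of its arms is described below.
Mir206 hairpin: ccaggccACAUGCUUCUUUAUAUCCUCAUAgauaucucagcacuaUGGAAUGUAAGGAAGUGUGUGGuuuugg

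miR-499-5p lies at chr2:155622893-155622913, in an intron of Myh7b, a myosin heavy chain gene on the same strand. A locus each of miR-1a and miR-133a, Mir1a-1 and Mir133a-2, lies on chromosome 2 with 9254 bases between them.

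Total counts per library were 26391248 to 38166798, of which the spike-in took 57.4% to 66.9% in cells and 97.6% to 98.4% in EVs. Mouse miRNAs therefore had 8745848 to 12732173 reads per cell library and 503070 to 687592 per EV library, spread over 466 to 599 miRNAs in cells and 183 to 202 in EVs. A count of 0 allows up to 3 reads, which is the same as 0.236 to 0.343 reads in 1000000 mouse miRNA reads in cells and 4.36 to 5.96 in EVs. These limits and the intervals given below cover counting error only, because reads are not independent molecules. Levels are given either in RPM, reads per 1000000 mouse miRNA reads, which is a share of the library, or in spike-in units, reads per 1000000 spike-in reads, which is an amount relative to what was added. A mature miRNA is read whole, so its count needs no correction for length.

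miR-206-3p was by far the most abundant member in cells, and it was present in every library. The shCTR cells held 15420 and 17476 reads and the shPCBP2 cells 12252 and 19342 reads, while EVs held 86 and 99 reads (shCTR) and 96 and 178 reads (shPCBP2). All 4 cell libraries were far above all 4 EV libraries, and the shCTR and shPCBP2 cells overlapped. Among the miRNAs with reads it ranked 65 of 561 and 60 of 466 in shCTR cells and 57 of 553 and 54 of 599 in shPCBP2 cells, whereas in EVs it ranked 178 of 202, 156 of 187, 173 of 189 and 114 of 183. It thus stood in the upper part of the cell libraries and, except in EV shPCBP2 replicate 2, near the foot of the EV libraries.

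As a share, miR-206-3p had 1353 ± 200.0 RPM in shCTR cells (SD, n = 2) and 1466 ± 91.9 in shPCBP2 cells (SD, n = 2). In EVs the share was 152 ± 38.0 for shCTR and 255 ± 140 for shPCBP2 (SD, n = 2 each). Counting error in the EVs was wide, with Wilson 95% intervals of 101 to 154 and 147 to 218 RPM in the shCTR libraries and 127 to 189 and 306 to 410 in the shPCBP2 libraries. The interval of EV shPCBP2 replicate 2 lay above those of the other 3 EV libraries, which overlapped each other.

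**Figure D1:**
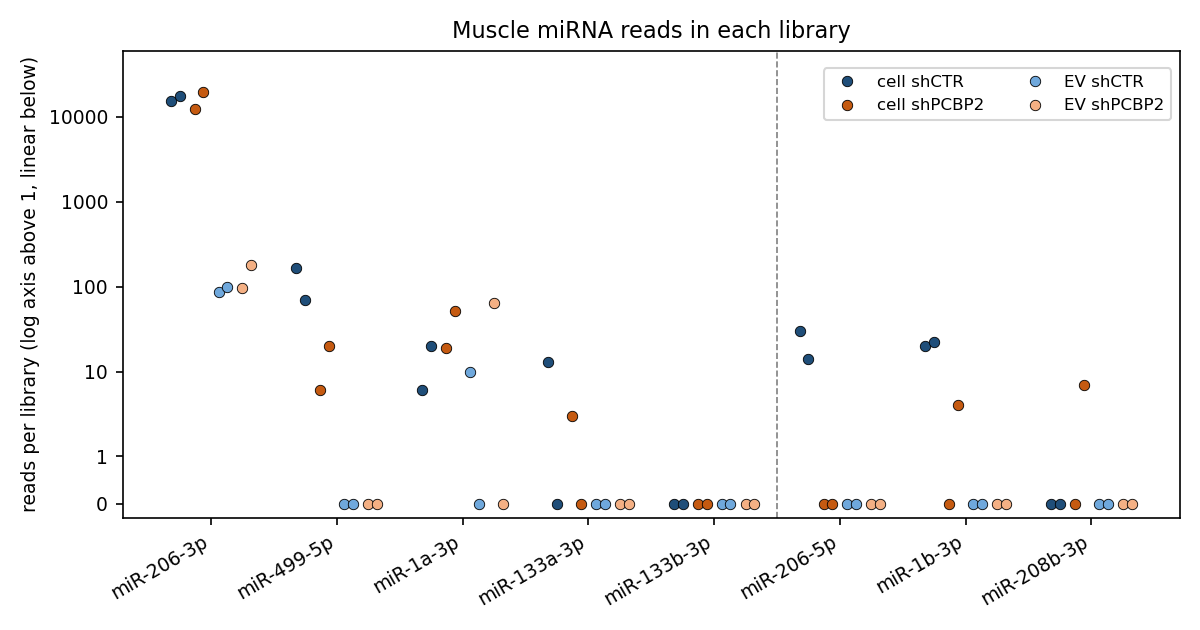
Reads of each muscle miRNA in each of the 8 libraries (vertical axis logarithmic above 1 and linear below), with the 5 members to the left of the dashed line and those of their arms and relatives with a read to the right. miR-206-3p had 12252 to 19342 reads in cells and 86 to 178 in EVs, while no other miRNA shown exceeded 168 reads in any library.

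miR-1a-3p, which shares its seed with miR-206-3p and marks both heart and skeletal muscle, was rare. There were 6 and 20 reads in shCTR cells and 19 and 52 in shPCBP2 cells, and EVs held 10 and 0 reads (shCTR) and 65 and 0 reads (shPCBP2). The cell libraries of the 2 conditions overlapped, and in each EV condition 1 replicate held reads and the other none. The 10 reads ranked 201 of 202 miRNAs with reads in their library and the 65 reads ranked 181 of 189. Low counts were scarce in EVs in general, since 16.8% of the non-zero EV values were of 1 to 100 reads (128 of 761) against 56.0% in cells (1220 of 2179).

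miR-499-5p was seen only in cells. The shCTR cells held 168 and 69 reads, the shPCBP2 cells 6 and 20, and all 4 EV libraries 0. Both shPCBP2 cell libraries were below both shCTR cell libraries, with 9.55 ± 5.16 RPM in shCTR and 1.13 ± 0.634 in shPCBP2 (SD, n = 2 each).

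miR-133a-3p, which is co-transcribed with miR-1, was detected in 1 library of each kind of cell, with 13 reads in shCTR replicate 1, 3 reads in shPCBP2 replicate 1, and 0 in the other 6 libraries. miR-133b-3p, whose hairpin neighbours that of miR-206, had 0 reads in all 8 libraries. At the cell floor of at most 0.343 RPM, miR-133b-3p was not detectable beside 1211 to 1531 RPM of miR-206-3p. The 2 miR-133 members differ mainly at their 3′ end, so the division of reads between them is uncertain.

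Within cells, miR-206-3p made up 98.8% to 99.8% of the reads of the 5 members. It exceeded miR-1a-3p 2570-fold and 874-fold in the shCTR cells and 645-fold and 372-fold in the shPCBP2 cells. It exceeded miR-499-5p 91.8-fold and 253-fold in the shCTR cells and 2042-fold and 967-fold in the shPCBP2 cells. The order of miR-1a-3p and miR-499-5p was not the same in all cell libraries, with miR-499-5p ahead in both shCTR libraries and miR-1a-3p ahead in both shPCBP2 libraries. In EVs, miR-206-3p was 8.60-fold above miR-1a-3p in shCTR replicate 1 and 1.48-fold above it in shPCBP2 replicate 1, and it was the only member with reads in both replicates 2.

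The other muscle miRNAs looked at, which were arms and relatives of the members, gave the same picture of few reads. miRNAs on the lists of other cell types below were not counted here, whether or not muscle also makes them. Of 13 further arms and relatives (the other strands of the miR-1, miR-133, miR-206 and miR-499 hairpins, miR-1b, miR-133c and the miR-208 family), 3 had a read in cells, 0 had a read in EVs, and 0 passed the filter. miR-206-5p, the lesser arm of the miR-206 hairpin, had 30 and 14 reads in shCTR cells and 0 and 0 in shPCBP2 cells. It was 0.194% and 0.0801% of the reads of both arms in shCTR, a 3p to 5p ratio of 514 and 1248. miR-1b-3p had 20 and 22 reads in shCTR cells and 0 and 4 in shPCBP2 cells, and the cardiac miR-208b-3p had 7 reads in shPCBP2 cell replicate 2 alone.

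The labelled cell type was compared with lists of miRNAs that mark hepatocytes and other cells. Of the 7 hepatocyte miRNAs 6 had reads in cells, with a summed 24289.8 to 28837 RPM, most of it miR-194-5p with 218474 to 342726 reads. miR-122-5p, the most liver-restricted of them, had 455, 485, 356 and 469 reads in the 4 cell libraries, and miR-206-3p exceeded it there 33.9-fold, 36.0-fold, 34.4-fold and 41.2-fold. The 5 muscle members summed to 1226 to 1537 RPM in cells and 140 to 354 in EVs, and the 4 neural miRNAs to 8.31 to 23.3 in cells, with miR-219a-5p at 0. Of the neural miRNAs EVs held only 80 reads of miR-9-5p in shCTR replicate 2, or 145 RPM beside 179 RPM of miR-206-3p there. The hepatocyte miRNAs summed to 10049.6 to 13194 RPM in EVs, but went both ways, by reads pooled over the libraries of each kind. miR-122-5p had 38.5 RPM in cells and 2772 in EVs, miR-148a-3p 3.41 and 1177, and miR-101a-3p 4.56 and 314. Lower in EVs were miR-194-5p (24688 and 7586), miR-192-5p (1278 and 474) and miR-101b-3p (264 and 50.4). The last 2 were not read in every EV library. EVs also held 96299.8 to 115771 RPM of the 5 erythroid miRNAs and 13738 to 17023 of the 4 leukocyte miRNAs, against 13.5 to 31.7 and 1.11 to 7.07 in cells, where miR-451a, miR-144 and miR-142a were at 0. The part of these markers in the muscle miRNA values was not tested.

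**Figure D2:**
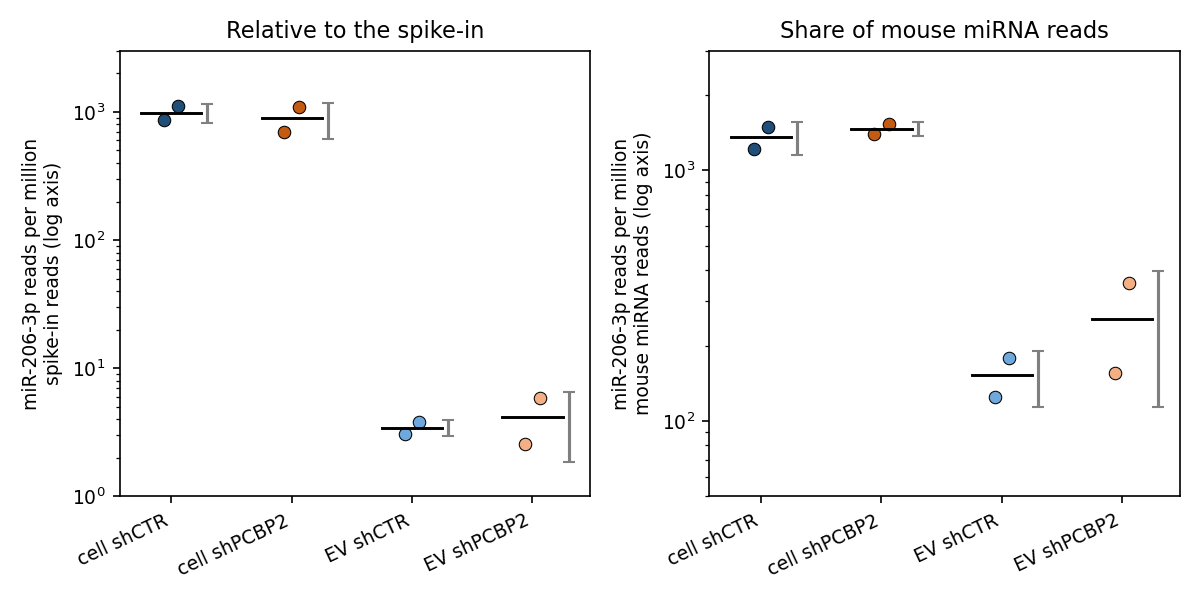
Level of miR-206-3p in each library, as reads per 1000000 spike-in reads (left) and per 1000000 mouse miRNA reads (right), both on a logarithmic axis. Points are libraries, black lines are group means and grey bars are ± 1 SD (n = 2). The cell groups averaged 988 and 890 spike-in units and the EV groups 3.45 and 4.21, and on the right the gap between cells and EVs was smaller, 1353 and 1466 RPM against 152 and 255 RPM.

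EVs were then compared with the cells. miR-206-3p was the member with a called difference, and it was lower in EVs with both shRNAs. It stood at 865 and 1111 spike-in units in shCTR cells and at 694 and 1085 in shPCBP2 cells, against 3.10 and 3.80 in shCTR EVs and 2.56 and 5.85 in shPCBP2 EVs. No EV library came near the range of the cells.

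With edgeR's quasi-likelihood test, scaled to the spike-in and fitted over the 180 miRNAs with at least 1 read in 2 or more cell and 2 or more EV libraries, the log2 change of miR-206-3p in shCTR was -8.16 (SE 0.65, 95% interval -9.75 to -6.57, Benjamini-Hochberg adjusted p = 5.018e-05), a fitted level 286-fold lower. In shPCBP2 the log2 change was -7.72 (SE 0.64, 95% interval -9.28 to -6.17, adjusted p = 5.93e-05), or 212-fold lower. Being called lower was common, at 59.4% of the tested miRNAs in shCTR and 60.0% in shPCBP2, against 1 of the 2 members tested. That share belongs to the spike-in, since with TMM factors, median-of-ratios factors and the total mouse miRNA count 40, 36 and 32 of the 180 were called lower in shCTR, and 45, 41 and 35 in shPCBP2, miR-206-3p among them each time.

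Among the tested miRNAs, the size of the difference was less common than its direction. Over the 180 tested miRNAs the median log2 change was -4.93 in shCTR and -4.90 in shPCBP2, and relative to that median miR-206-3p stood at -3.23 and -2.83. Only 5 of the 180 tested miRNAs in shCTR and 8 in shPCBP2 had a lower EV to cell ratio. The filter required reads in at least 2 EV libraries, so miRNAs read only in cells were not in this order. In the fit of all 800 miRNAs with a read the medians were -5.77 and -5.62. Relative to them miR-206-3p stood at -2.39 and -2.10. An exact two-sided permutation test over libraries, 4 EV against 4 cell with both shRNAs pooled, gave a difference of -7.98 in mean log2 spike-in units and p = 0.0286. That is the smallest p this design can give, and any miRNA whose EV libraries all lie on one side of its cell libraries reaches it. How many of the 180 tested miRNAs do so was not counted.

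How much of the difference is seen depends on the scale. In spike-in units, fewer vesicles, less miRNA per vesicle and less starting material cannot be told apart. The study's methods do not state how much cell or EV material went into each sequenced sample. As a share of mouse miRNA reads, summed over replicates, miR-206-3p was 9.03-fold lower in EVs in shCTR and 6.05-fold lower in shPCBP2, where the spike-in gave 285-fold and 221-fold. Scaled to the total mouse miRNA count, edgeR gave log2 changes of -3.15 (adjusted p = 0.00385) and -2.53 (adjusted p = 0.00773), and the median of all tested miRNAs moved to 0.06 and 0.30. TMM factors gave -3.38 and -3.11 and median-of-ratios factors -3.36 and -2.90, so the direction and the call of miR-206-3p were the same under all 4 scalings.

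**Figure D3:**
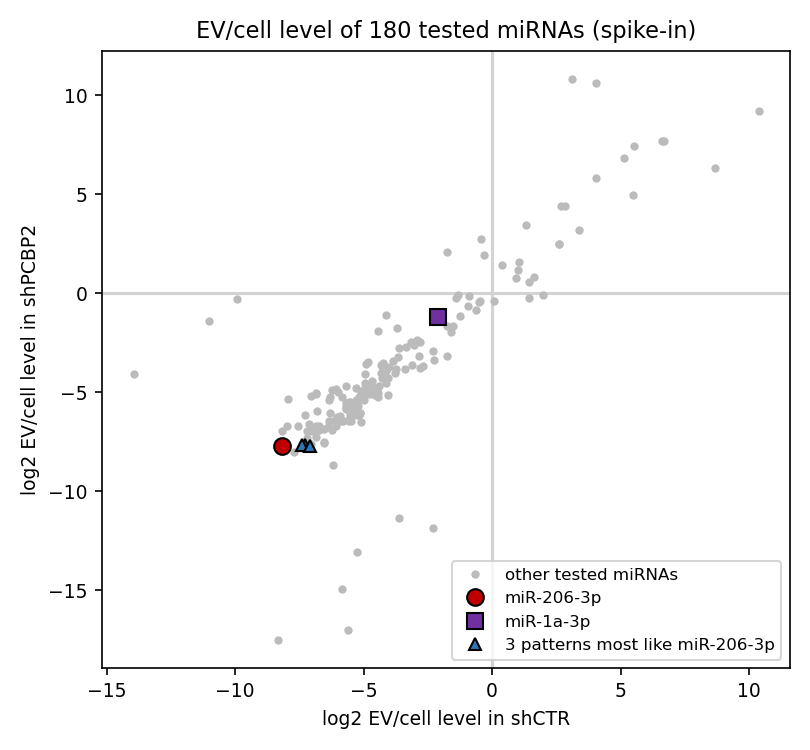
Log2 change of EVs against cells in shCTR (horizontal) and in shPCBP2 (vertical), relative to the spike-in, for each of the 180 tested miRNAs, without error bars. miR-206-3p sits at -8.16 and -7.72, below the medians of -4.93 and -4.90, beside the 3 miRNAs with the most similar levels across libraries, while miR-1a-3p sits at -2.12 and -1.20.

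miR-1a-3p did not pass the test in either comparison. Its log2 change relative to the spike-in was -2.12 in shCTR (SE 2.49, adjusted p = 0.454) and -1.20 in shPCBP2 (SE 2.38, adjusted p = 0.665), with 95% intervals from -8.17 to 3.94 and from -6.99 to 4.59. Scaled to the total mouse miRNA count the values turned to 2.73 and 4.06, so its direction is not determined by these libraries. In the exact permutation test of 4 EV against 4 cell libraries the difference was -3.21 with p = 0.200, and 1.86 with p = 0.371 on the share of mouse miRNA reads.

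For the members without reads in EVs only bounds can be given, taken against a floor of 3 counts in each EV library, 6 over the pair. miR-499-5p was at least 63.3-fold lower in EVs in shCTR and at least 8.30-fold lower in shPCBP2 relative to the spike-in, and at least 2.01-fold lower in shCTR as a share of mouse miRNA reads. At the EV to cell ratio of miR-206-3p, its cell reads would correspond to 1.33 EV reads over the shCTR pair and 0.226 over the shPCBP2 pair, both under the floor of 6, so a ratio like that of miR-206-3p was not detectable at this depth. In shPCBP2 the share of miR-499-5p gave no bound above 1. For miR-133a-3p the bound in shCTR was 3.47-fold lower in spike-in units, resting on the 13 reads of a single library, and it had no bound above 1 as a share. No fold can be given for it in shPCBP2 or for miR-133b-3p.

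The comparison at the centre of the study is that of the EV to cell ratio with and without PCBP2 knockdown. For miR-206-3p the log2 change of the ratio was 0.44 (SE 0.68, 95% interval -1.21 to 2.08, adjusted p = 0.992), and for miR-1a-3p it was 0.92 (SE 3.30, 95% interval -7.12 to 8.97, adjusted p = 0.992). Neither passed edgeR's quasi-likelihood test, in which 2.22% of the tested miRNAs were called. For miR-206-3p the value was -0.28 without EV shPCBP2 replicate 2, so its sign rested on that library. For miR-1a-3p it was -6.34 without EV shPCBP2 replicate 1, -0.32 without cell shCTR replicate 2 and -0.05 without EV shCTR replicate 2.

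In EVs, shPCBP2 and shCTR overlapped for miR-206-3p on the spike-in scale, with 2.56 and 5.85 against 3.10 and 3.80 spike-in units. The log2 change was 0.28 (SE 0.48, 95% interval -0.89 to 1.45, adjusted p = 0.843 by edgeR's quasi-likelihood test), where 7.22% of the tested miRNAs were called. It rested on EV shPCBP2 replicate 2, which was 2.29-fold above replicate 1, and it was -0.43 without that library. For miR-1a-3p the log2 change was 2.23 (SE 2.48, adjusted p = 0.742), and it was -5.03 without EV shPCBP2 replicate 1, the library with its 65 reads.

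In cells, miR-206-3p differed between shPCBP2 and shCTR by a log2 change of -0.15 (SE 0.48, 95% interval -1.31 to 1.01, adjusted p = 0.938 by edgeR's quasi-likelihood test). The 2 replicates differed 1.28-fold in shCTR and 1.56-fold in shPCBP2, more than the fitted 1.11-fold between the shRNAs. The sign turned under the other scalings, to 0.12 with the total mouse miRNA count, 0.24 with median-of-ratios factors and 0.32 with TMM factors. The change of miR-1a-3p was 1.31 (SE 2.40, adjusted p = 0.938). In this comparison 0% of the 180 tested miRNAs were called, with 25 at an unadjusted p under 0.05 and 18 called by DESeq2, none of them a member.

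**Figure D4:**
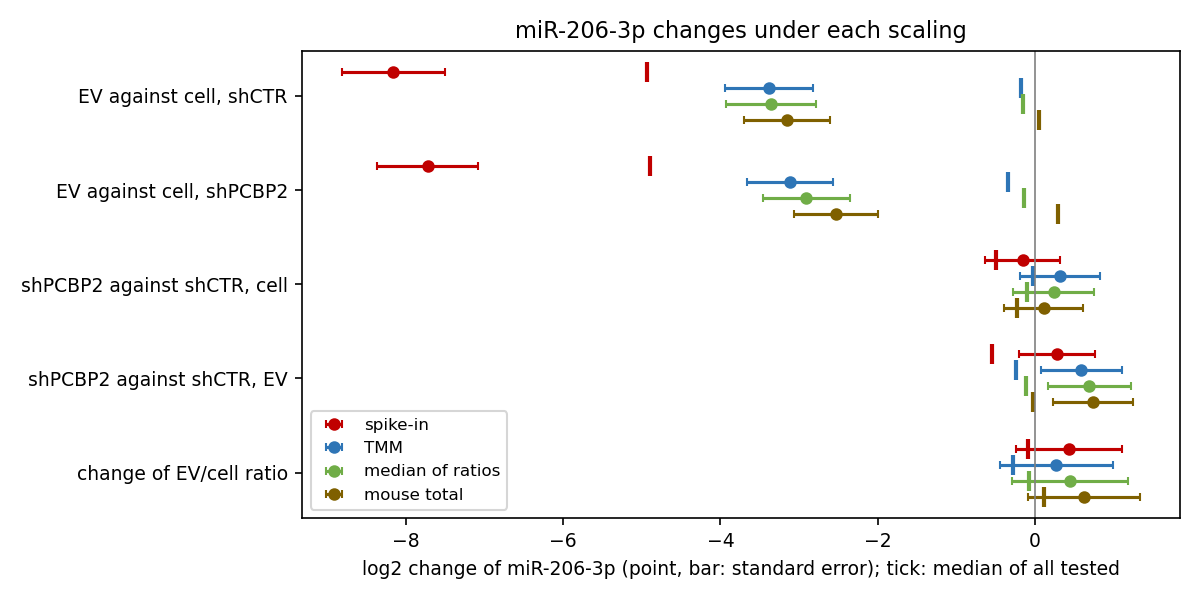
Log2 change of miR-206-3p in the 5 comparisons under the 4 scalings, as points with bars of ± 1 standard error, and the median of all 180 tested miRNAs as a vertical tick. The EV against cell changes lie at -8.16 and -7.72 with the spike-in and between -3.38 and -2.53 with the others, always to the left of their ticks, and the bars of the comparison in cells cross 0.

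miR-499-5p showed the widest gap between the cell groups among the members. Its reads summed to 237 in shCTR and 26 in shPCBP2, 9.63-fold lower relative to the spike-in. It had not passed the filter, and in the edgeR fit of all 800 miRNAs with a read its log2 change was -3.23 (SE 1.29) with an unadjusted p of 0.0470 and an adjusted p of 0.927, in a fit where 3.25% of miRNAs had an unadjusted p under 0.05. Of the 4 members with reads in cells it was the 1 with both shPCBP2 libraries below both shCTR libraries, which was also so for 30.1% of the 772 miRNAs with a read in cells relative to the spike-in, and for 23.4% as a share of mouse miRNA reads. An exact permutation test of 2 against 2 libraries cannot give a two-sided p under 0.333.

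Among the other muscle miRNAs, miR-206-5p and miR-1b-3p had the same order of groups. miR-206-5p was at least 7.75-fold lower in shPCBP2 cells, against a floor of 3 counts per library, and miR-1b-3p was 11.1-fold lower by its summed reads, 42 against 4. Both had an adjusted p of 0.927 in the unfiltered edgeR fit. miR-206-3p, from the same hairpin as miR-206-5p, had 32896 and 31594 summed reads in the same libraries.

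The tested miRNAs whose levels across the 8 libraries were most like those of miR-206-3p were miR-34a-5p, miR-21a-5p and miR-196b-5p. The root-mean-square difference of their centred log2 levels from those of miR-206-3p was 0.439, 0.502 and 0.517, where the median over the 179 other tested miRNAs was 2.43. miR-34a-5p, a well-known p53 target, had 31438 to 41156 reads in cells and 231 to 434 in EVs, and miR-21a-5p, an abundant miRNA of many growing cells, had 424996 to 574098 and 3750 to 5631. miR-196b-5p, encoded in a Hox gene cluster, had 66819 to 91758 reads in cells and 647 to 1063 in EVs. Because the 3 were picked by these same levels, nearness of their EV to cell changes follows from the choice. In shCTR their log2 changes of EVs against cells were -7.10, -7.42 and -7.27, beside -8.16 for miR-206-3p. In shPCBP2 they were -7.70, -7.66 and -7.65, beside -7.72 for miR-206-3p.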

How the data were processed

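The authors sequenced small RNA libraries prepared with a NEXTFLEX kit from 2 biological replicates per condition, trimmed and filtered the reads with FastqToolkit 2.2.5, kept forward reads, aligned them with mirPRo 1.1.4 and NovoAlign to miRBase 22.1 hairpins plus the spike-in, and deposited raw counts per mature miRNA, the largest of them rounded to 6 significant digits. Of its 1980 rows, 2 are of the spike-in and were used for scaling only (97.6% to 98.4% of EV counts).

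Samples were grouped and numbered by their titles. The deposited column names number the shPCBP2 libraries otherwise, as 1 and 3 in cells and 2 and 3 in EVs, so replicates 1 of the shPCBP2 cells and EVs bear different numbers there. The members and lists were chosen with earlier results of these data known. miRNAs with at least 1 read in 2 cell and 2 EV libraries (180) were tested in R 4.3.3 with edgeR 4.0.16, with library sizes set to the spike-in count, a model with 1 term per condition, a prior count of 0.125 and Benjamini-Hochberg adjustment over all 180, called at an adjusted p under 0.05. The fit had a common dispersion of 0.693 and 4 residual degrees of freedom. Standard errors were derived from the F statistic. The step was tested on simulated data for EVs against cells in shCTR alone, with EV levels set to the cell level per spike-in read before changes were added. Such EV levels lie above most of the real ones, so that test does not stand for the real EV counts. Single miRNAs were compared by exact permutation on log2 levels with a pseudocount of 0.5 counts, in Python 3.11.15 with scipy 1.17.1.

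All 5 members were named, with those of their other arms and relatives that had a read, the 3 tested miRNAs nearest to miR-206-3p, and leading or zero-count list miRNAs. Other miRNAs of the hepatocyte list, and miR-6349 and miR-6382 with their seeds, were named after their counts were seen. Alternatives were other scalings, filters, DESeq2 1.42.0, a replicate block, only the 4 libraries compared, a pseudocount of 2, and each library left out. Sequences and hairpin positions are from RefSeq, and gene overlaps from GENCODE on GRCm38.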

Additional observations from a re-analysis of the deposited data

How the results depend on the processing

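The lower level of miR-206-3p in EVs kept its direction and passed the edgeR test under each alternative and with each library left out, at log2 changes of -8.33 to -7.97 in shCTR and -8.44 to -7.25 in shPCBP2 when libraries were left out; its permutation difference was then -8.20 to -7.81, with p = 0.0571, the smallest that 4 against 3 libraries can give. No other comparison of miR-206-3p or miR-1a-3p passed under these alternatives. The change of miR-206-3p in cells turned to 0.32 with TMM factors, 0.24 with median-of-ratios factors and 0.12 with the total mouse miRNA count, and ranged from -0.51 to 0.14 without single libraries; the ranges were -0.43 to 0.76 in EVs and -0.28 to 0.91 for the EV to cell ratio. With the same 3 scalings miR-1a-3p in EVs against cells turned to 2.56, 2.50 and 2.73 in shCTR and to 3.34, 3.53 and 4.06 in shPCBP2, and its permutation difference to 1.86 on the share of mouse reads. Without single libraries miR-1a-3p ranged from -7.23 to -0.88 in shCTR, -8.46 to -0.21 in shPCBP2, -6.34 to 6.04 for the ratio, -5.03 to 7.35 in EVs and 0.42 to 2.55 in cells, and its permutation difference from -4.50 to -2.26.

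Counts of called miRNAs moved more. For the EV to cell ratio the 4 calls became 13 with TMM factors, 2 with median-of-ratios factors, 0 with at least 10 counts in every library (113 miRNAs, miR-1a-3p not among them), 1 with the replicate block and 14 with DESeq2. In EVs the 13 calls became 7 without the filter, 7 with the filter of 10 counts, 2 with the replicate block, 1 with only the 4 libraries compared and 27 with DESeq2. In cells the 0 calls became 5 with TMM factors, 1 with median-of-ratios factors, 3 with the total count, 8 with the filter of 10 counts, 39 with only the 4 libraries compared and 18 with DESeq2. In EVs against cells, 119 calls in shCTR became 82 with TMM factors, 76 with median-of-ratios factors, 75 with the total count and 294 without the filter. In shPCBP2 122 calls became 87, 86, 89 and 294 in the same order. In shCTR the spike-in gave 12 higher and 107 lower calls, TMM factors 42 and 40, median-of-ratios factors 40 and 36, and the total count 43 and 32. For shPCBP2 the same 4 gave 14 and 108, 42 and 45, 45 and 41, and 54 and 35. Leaving out single libraries gave 0 to 11 calls for the ratio, 102 to 134 and 104 to 131 for EVs against cells, 1 to 21 in EVs and 0 in cells; the cause of these movements was not tested. Deviations between replicates, numbered by the titles, correlated at -0.51 between the 2 cell groups and at -0.09 to 0.04 between every other pair of groups. No positive pairing by these numbers was seen, and the cause of the negative value in cells was not tested. In the fit with the replicate block miR-206-3p changed by -8.15 and -7.78 in EVs against cells, 0.37 for the ratio, 0.19 in EVs and -0.18 in cells, with no member's call changed. The numbers of the titles differ from the column names for the shPCBP2 libraries. A replicate block by the column names, added after seeing the data, gave 0 calls for the ratio, 0 in EVs and 0 in cells, and turned miR-206-3p in EVs to -0.31 and the ratio of miR-1a-3p to -2.75, while miR-206-3p in EVs against cells was -8.16 and -7.88 and still called. A block with the numbers of the 2 shPCBP2 cell libraries exchanged, also added after seeing the data, gave 0 calls in cells. Depth limits the members other than miR-206-3p, which had 0 reads in 2 to 4 of the 4 EV libraries.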
